A study of Mus musculus with 50 samples.

Results

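The arrays compared here were 15 of the 50 in the series: 5 of neocortex from mice labelled S1P3-KO, and 10 of neocortex from wild-type mice. They were chosen by genotype and tissue in the sample titles, and not by any measured value. The S1P3-KO group holds 2 males (replicates 1 and 2) and 3 females (replicates 3 to 5), and the wild-type group holds 5 males (replicates 1 to 5) and 5 females (replicates 6 to 10). All mice were 8 weeks old. The other neocortex group, 10 mice labelled S1P2-KO, had sporadic seizures from 4 to 7 weeks of age, whereas the design text states that S1P3-deficient mice have none. That text gives the group sizes as 10, 5 and 10 and does not place the S1P3-deficient mice among them, so the titles were followed. The knockout allele and the strain were not given in the sources used here. The titles call the replicates biological, and each array is taken as 1 mouse.

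S1P3, encoded by S1pr3, is a cell surface receptor for sphingosine 1-phosphate, a lipid that cells make by phosphorylating sphingosine. It couples to several classes of heterotrimeric G protein and so reaches phospholipase C and other intracellular pathways. In brain it is known mainly from vessels and from astrocytes, where it is associated with reactive states. The comparison asks which transcripts differ in adult neocortex of mice that lack this receptor and do not seize.

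RNA was hybridised to Affymetrix oligonucleotide arrays, on which each transcript is read by 1 or more probe sets. The signals are the authors' MAS5 values, and every array had been scaled to nearly the same mean, with trimmed means of 1000.57 to 1000.63. Within neocortex, each of the 15 arrays had a median Pearson correlation of 0.936 to 0.959 with the other arrays, on the log2 scale used below. The Y-linked gene Eif2s3y gave at least 422 signal units in the males and at most 128 in the females, so no array went against its sex label. A measure of RNA integrity did differ between the groups. The log2 ratio of the 3′ to the 5′ probe sets for Gapdh and beta-actin was 0.21 to 0.357 in S1P3-KO arrays (median 0.235) and 0.297 to 0.482 in wild-type arrays (median 0.378). Its mean was 0.102 lower in S1P3-KO (exact two-sided permutation test, p = 0.00766), and the lowest values were those of the 2 S1P3-KO males, 0.21 and 0.22. Its part in the gene results was not tested beyond the fits with this ratio as a covariate that are given below.

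Differences below are on the scale of log2(signal + 30.7), S1P3-KO minus wild-type, with their standard error. They come from limma fitted to 8534 probe sets above a low-signal filter in all 25 neocortex arrays, with sex as a covariate. The p-values were adjusted by the Benjamini-Hochberg method over all of these, and a gene was called at an adjusted p under 0.05. A gene is represented by its brightest probe set, which gives 6350 genes. In whole tissue, fewer cells of a type and less RNA per cell cannot be told apart.

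The targeted transcript came first. S1pr3 read 600, 1122, 786, 637 and 501 in the 5 S1P3-KO arrays, against a lowest value of 629, a median of 847 and a highest of 1077 in wild-type. Its groups overlapped, with 2 S1P3-KO arrays below every wild-type array and 1 above. The difference was -0.26 ± 0.17, with a 95% interval from -0.60 to 0.08 (limma adjusted p = 0.638). In the hippocampus of the same genotypes S1pr3 averaged 495 ± 42.7 in S1P3-KO and 827 ± 204 in wild-type (SD, n = 5 and 10), a difference of -0.69 ± 0.17 (adjusted p = 0.0633), or -0.65 ± 0.19 (adjusted p = 0.193) without the S1P3-KO hippocampus array of highest RNA ratio. Whether this probe set lies within the deletion is not given in the sources used here, so these values do not check the genotype labels. S1P3-KO names the mice so labelled throughout.

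The differences in the other S1P receptors were smaller than their errors. S1pr1, the receptor through which S1P holds endothelial barriers, averaged 335 ± 48.9 in S1P3-KO and 359 ± 83.8 in wild-type (SD, n = 5 and 10). Its difference of -0.04 ± 0.16 changed sign when S1P3-KO replicate 1 was left out or when the RNA ratio was a covariate. S1pr2, the receptor targeted in the other knockout line, averaged 640 ± 184 in S1P3-KO and 672 ± 137 in wild-type, and its difference of -0.06 ± 0.17 also turned positive without S1P3-KO replicate 4 or wild-type replicate 10. Their 95% intervals ran from -0.38 to 0.29 for S1pr1 and from -0.41 to 0.30 for S1pr2. S1pr4 lay below the filter. Lpar1, a receptor for the related lipid lysophosphatidic acid, differed by 0.21 ± 0.11 (adjusted p = 0.552).

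Enzymes that make and break sphingolipids stood close to 0 as a group: 11 of 19 tested were higher, the median difference was 0.03, and no member reached even an unadjusted p of 0.05. Over all 6350 genes the median was -0.002. Among genes that act downstream of such receptors, Gnb1, a G protein beta subunit, stood among the smallest p-values of all genes. Gnb1 read 8615, 7175, 4712, 6240 and 7645 in S1P3-KO, against 3618, 4800 and 5837 as the lowest, median and highest wild-type values. All S1P3-KO arrays but replicate 3 lay above every wild-type array, and the difference was 0.51 ± 0.11 (adjusted p = 0.0802). Its 2 dimmer probe sets differed by 0.07 and 0.25. An unadjusted p under 0.05 was also given by the beta-arrestin Arrb1 (0.28 ± 0.10, and -0.01 in its dimmer probe set) and the kinase Akt1 (0.22 ± 0.08), both higher, and by the inhibitory alpha subunit Gnai1 (-0.16 ± 0.08), which was lower.

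No single probe set passed the adjusted threshold over both sexes: limma called 0 of 8534 (0.0%). At an unadjusted p under 0.05 there were 895 (10.5%). Counted over genes, 342 were higher (5.39%) and 328 lower (5.17%). With the RNA ratio as a covariate 23 probe sets were called (0.27%), 17 higher and 6 lower. When 1 array was left out, 10 probe sets were called in the absence of S1P3-KO replicate 3, 2 in that of wild-type replicate 10, 1 in that of S1P3-KO replicate 4 and 0 in every other case. The 10 included Gnb1, Sdc4, Mapk6, Fmnl1, Mef2c, Zfp148 and Uap1, all described below. The genes that follow are therefore given as values beside their spread and not as called changes.

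The smallest p-values on the higher side included those of Sdc4, Grb2 and Mapk6. Sdc4, a heparan sulphate proteoglycan of focal adhesions that astrocytes express, read 1961, 1853, 1096, 1478 and 1804 in S1P3-KO, against 912, 1047 and 1265 as the lowest, median and highest wild-type values. All S1P3-KO arrays but replicate 3 were above every wild-type array (0.62 ± 0.13, adjusted p = 0.0802). Grb2, the adaptor that links activated receptor kinases to Ras, read 4355, 3527, 3565, 3758 and 3642 in S1P3-KO, against 1893, 2358 and 3111 in wild-type on the same 3 measures. Its groups did not overlap (0.61 ± 0.12, adjusted p = 0.0802). Mapk6, an atypical MAP kinase, read 5340, 4817, 4001, 4155 and 5806 in S1P3-KO, against 3299, 3675 and 4187 in wild-type. Its replicates 1, 2 and 5 were above every wild-type array (0.38 ± 0.08, adjusted p = 0.0802). These 3 genes and Gnb1 were among those called once the RNA ratio was a covariate.

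Others on the higher side followed with adjusted p-values of 0.0919 to 0.132. Ramp2, which pairs with the calcitonin receptor-like receptor to form the adrenomedullin receptor of vessels, differed by 0.53 ± 0.11. The actin regulator Fmnl1 differed by 0.82 ± 0.18, and its dimmer probe set by 0.87. Atp6v0a1, a subunit of the proton pump of synaptic vesicles and lysosomes, differed by 0.45 ± 0.10 with no overlap between groups. Ap2a1, of the adaptor that brings cargo into clathrin-coated pits, differed by 0.58 ± 0.14, and Slc7a5, the large neutral amino acid transporter of the blood-brain barrier, by 0.38 ± 0.09. Zdhhc14, a palmitoyltransferase, Leng8 and Lor, the gene for loricrin, differed by 0.45 ± 0.11, 0.69 ± 0.17 and 0.42 ± 0.09.

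On the lower side, Bcap29, a protein of the endoplasmic reticulum, read 1061, 1286, 973, 1693 and 1470 in S1P3-KO, against 1466, 1713 and 2089 as the lowest, median and highest wild-type values (-0.44 ± 0.10, adjusted p = 0.132). Uap1, which makes the UDP-N-acetylglucosamine used in glycosylation, read 111, 41.9, 207, 28.9 and 124 in S1P3-KO, against 154, 237 and 279 in wild-type (-1.17 ± 0.28, adjusted p = 0.132). Every Uap1 value but that of replicate 3 was below every wild-type array, and the gene is dim, so its size rests on low signals. The zinc finger factor Zfp148 read 531, 472, 806, 519 and 470 in S1P3-KO, against 670, 792 and 939 in wild-type, with replicate 3 again the array nearest to wild-type (-0.50 ± 0.12, adjusted p = 0.132). Hmces, which shields damaged bases in DNA, differed by -0.72 ± 0.18, the splicing kinase Clk1 by -0.46 ± 0.11, and Foxo3 by -0.32 ± 0.09. Kcnma1, the calcium-activated BK potassium channel, differed by -0.63 ± 0.16. Mef2c, a transcription factor of cortical excitatory neurons, differed by -0.40 ± 0.10, and its 3 dimmer probe sets by -0.50, -0.53 and 0.08. The Mef2c probe set at -0.53 had a limma adjusted p of 0.0919, below those of the brightest probe sets on this side. A dimmer probe set of Usp2 had one of 0.0802 (-0.40 ± 0.08), while its brightest differed by -0.20 ± 0.07 (adjusted p = 0.325).

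**Figure D1:**
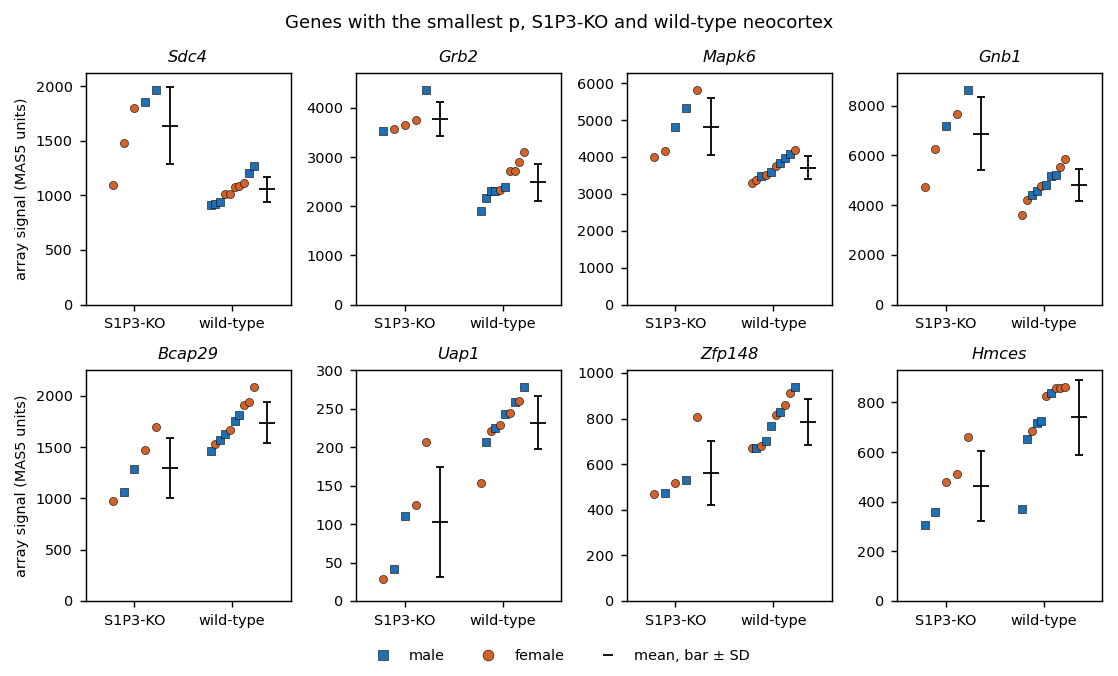
Array signal (MAS5 units, linear axis from 0) of the 4 genes with the smallest p on the higher side (top) and on the lower side (bottom) in S1P3-KO (5 arrays) and wild-type (10 arrays) neocortex. Each point is 1 array, sorted by signal within its group, squares are males and circles females, and the horizontal mark with its bar is the mean ± SD. Grb2 is the panel in which the 2 groups do not overlap.

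In 15 genes (0.236%) every S1P3-KO array lay above every wild-type array, and in 4 (0.063%) every one lay below. The higher set held Rasd1, a dexamethasone-induced Ras-like protein, which read 525, 461, 389, 367 and 543 in S1P3-KO, against 189, 270 and 342 as the lowest, median and highest wild-type values (0.70 ± 0.18, adjusted p = 0.132). It also held Slc35a2, the UDP-galactose transporter of the Golgi (0.62 ± 0.18), the matrix metalloproteinase Mmp17 (0.36 ± 0.11), Mt1 (0.35 ± 0.10), the elongation factor subunit Eef1d (0.34 ± 0.09) and the proteoglycan Gpc1 (0.31 ± 0.09). The 4 lower genes were Sqle, Msmo1, the ubiquitin ligase Znrf2 (-0.41 ± 0.11, with -0.14, -0.09 and 0.03 in its dimmer probe sets) and Ighm, the immunoglobulin mu chain (-0.36 ± 0.11). Sqle and Msmo1 both act in cholesterol synthesis.

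Cholesterol synthesis was the list with the lowest median of the 32 examined. Neurons and glia make their own cholesterol, since lipoproteins do not cross the blood-brain barrier, and the pathway's genes are driven together by the SREBP transcription factors. Of its 16 members 13 were lower and 3 higher, with a median of -0.29. On the lower side 6 had an unadjusted p under 0.05, against 5.17% of all genes. The list median was -0.24 with the RNA ratio as a covariate, and it was -0.16 without S1P3-KO replicate 1, a male. Sqle, squalene epoxidase, read 1412, 2531, 2332, 2782 and 3162 in S1P3-KO, against 3164, 3450 and 3706 as the lowest, median and highest wild-type values. Every S1P3-KO array was below every wild-type array, replicate 5 only just (-0.54 ± 0.13, adjusted p = 0.132). Idi1, which isomerises the isoprenoid building block, read 1074, 1058, 2258, 1991 and 1804 in S1P3-KO, against 1560, 2582 and 3012 in wild-type. Only its 2 male arrays lay outside the wild-type range (-0.58 ± 0.16, adjusted p = 0.188).

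Of the other members, Mvd, which makes isopentenyl diphosphate, read 521, 442, 737, 962 and 534 in S1P3-KO, against 672, 910 and 1128 in wild-type (-0.57 ± 0.16, adjusted p = 0.189). The C4-demethylation enzymes Msmo1 and Nsdhl differed by -0.36 ± 0.11 and -0.31 ± 0.10, and Hmgcs1, the synthase that feeds HMG-CoA reductase, by -0.32 ± 0.14. By contrast Ebp, Dhcr7 and Mvk differed by 0.09 ± 0.12, 0.14 ± 0.19 and 0.02 ± 0.11. Genes of sterol uptake, efflux and regulation had a median of -0.02, with 7 of 16 higher.

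The promoters of 3 of the lower genes are shown, since members of the pathway share promoter elements. Each is the 250 bases before the start site (RefSeq, GRCm38.p6), written 5′ to 3′ on the gene's strand, for Idi1 at chr13:8885356-8885605 (plus strand), Mvd at chr8:122443423-122443672 (minus strand) and Msmo1 at chr8:64733579-64733828 (minus strand). Capitals mark CCAAT, the element bound by NF-Y, on either strand (ATTGG is its reverse complement).
Idi1: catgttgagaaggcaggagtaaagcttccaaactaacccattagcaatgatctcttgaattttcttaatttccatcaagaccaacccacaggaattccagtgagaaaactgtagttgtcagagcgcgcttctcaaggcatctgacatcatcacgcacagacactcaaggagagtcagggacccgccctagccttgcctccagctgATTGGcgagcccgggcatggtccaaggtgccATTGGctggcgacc
Mvd: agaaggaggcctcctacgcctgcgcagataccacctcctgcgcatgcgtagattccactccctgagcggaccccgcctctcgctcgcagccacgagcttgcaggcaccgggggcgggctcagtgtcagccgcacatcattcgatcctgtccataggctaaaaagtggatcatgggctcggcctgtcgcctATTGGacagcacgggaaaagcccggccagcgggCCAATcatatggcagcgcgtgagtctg
Msmo1: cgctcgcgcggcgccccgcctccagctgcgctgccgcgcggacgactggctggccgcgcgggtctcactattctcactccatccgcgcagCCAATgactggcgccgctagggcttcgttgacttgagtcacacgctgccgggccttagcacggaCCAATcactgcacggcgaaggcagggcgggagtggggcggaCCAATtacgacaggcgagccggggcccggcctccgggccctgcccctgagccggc
CCAAT was present in these 3 windows 2, 2 and 3 times. It was found in all 13 members with an entry in the table, against 33.85% of 32851 promoters of this length. The members were counted by gene and the share by window. Dhcr7 has several windows, and not all of them held CCAAT. The sterol element core TCACNCCAC, searched on both strands, was found in 1 of the 13, Hmgcs1, against 1.05% of all promoters. A match is a description of the sequence and not a site shown to be used.

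Immediate early transcription factors, which neurons switch on within minutes of firing, had 14 of 20 members lower and a median of -0.20. An unadjusted p under 0.05 was given by 4 members, all lower, against 5.17% of all genes. The mean over the list's members had an SD of 0.364 among the wild-type arrays, larger than that median. For cholesterol synthesis this SD was 0.086. Fos read 1331, 832, 1476, 1379 and 1974 in S1P3-KO, against 1052, 2833 and 5739 as the lowest, median and highest wild-type values (-1.0 ± 0.34, adjusted p = 0.268). Every S1P3-KO value was below the wild-type median, and the wild-type arrays themselves were widely spread. Egr1 read 4300, 6002, 9098, 8404 and 8008 in S1P3-KO, against 6297, 10596 and 13971 in wild-type (-0.53 ± 0.17, adjusted p = 0.258). Nr4a2 and Klf10 differed by -0.59 ± 0.17 and -0.66 ± 0.19. Their downstream effectors, such as synaptic and growth factor genes induced by activity, had a median of -0.06, with 8 of 20 higher.

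Fos and Nr4a2 are shown in the same way at chr12:85473640-85473889 (plus strand) and chr2:57124004-57124253 (minus strand), with capitals for TGACG, the half-site of the cAMP response element, on either strand (CGTCA is its reverse complement).
Fos: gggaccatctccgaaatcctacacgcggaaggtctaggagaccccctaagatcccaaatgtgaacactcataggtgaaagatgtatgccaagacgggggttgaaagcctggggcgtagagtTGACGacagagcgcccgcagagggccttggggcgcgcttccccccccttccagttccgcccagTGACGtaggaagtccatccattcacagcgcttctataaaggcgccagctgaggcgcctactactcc
Nr4a2: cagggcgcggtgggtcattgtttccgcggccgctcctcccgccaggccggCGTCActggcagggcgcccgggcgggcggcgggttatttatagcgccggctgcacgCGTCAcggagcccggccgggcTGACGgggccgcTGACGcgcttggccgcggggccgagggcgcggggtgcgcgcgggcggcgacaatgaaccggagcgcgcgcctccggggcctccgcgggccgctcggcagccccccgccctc
The half-site occurred 2 times before Fos and 4 times before Nr4a2, and 17.77% of all promoters held it. The full element TGACGTCA, present in 1.55% of promoters, was in neither window.

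Glucocorticoid-responsive genes and chaperones of the endoplasmic reticulum were the lists with the highest medians. Of 21 genes on the glucocorticoid-responsive list 18 were higher, with a median of 0.26. An unadjusted p under 0.05 was given by 9, all higher, against 5.39% of all genes. Whether each member answers to glucocorticoids in this tissue was not tested. The metallothioneins Mt1, Mt2 and Mt3, which bind zinc and copper and are read by separate probe sets of related sequence, differed by 0.35 ± 0.10, 0.32 ± 0.11 and 0.43 ± 0.13. Mt1 read 19711, 20702, 17624, 20316 and 18251 in S1P3-KO, against 12948, 15197 and 17211 as the lowest, median and highest wild-type values, with no overlap (adjusted p = 0.202). The cell cycle inhibitor Cdkn1a differed by 0.49 ± 0.16, the NF-kappa-B inhibitor Nfkbia by 0.38 ± 0.14, and Fkbp5, the glucocorticoid receptor co-chaperone, by 0.39 ± 0.18. Tsc22d3, another classic target, differed by 0.29 ± 0.36. The half-site of the glucocorticoid response element, TGTTCT, was searched on both strands in the 250 bases before Mt3, Fkbp5 and Cdkn1a. It was found 0 times in each of their windows, and 16.08% of all promoters held it. Without any 1 array the list median lay between 0.15 and 0.33.

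Of 23 chaperone and unfolded protein response genes 21 were higher, but the shift was small, with a median of 0.10. At an unadjusted p under 0.05 there were 5, all higher, against 5.39% of all genes. The list median was 0.16 without S1P3-KO replicate 2. Manf, a secreted stress-induced factor, read 4135, 2390, 1873, 2446 and 2253 in S1P3-KO, against 1458, 1788 and 2345 in wild-type (0.46 ± 0.13, adjusted p = 0.189). Hspa5, the main chaperone of the compartment, differed by 0.28 ± 0.12, and the disulphide isomerases Pdia4 and Pdia6 by 0.57 ± 0.20 and 0.38 ± 0.15. Cytosolic heat shock genes had a median of 0.02, with 16 of 27 higher.

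**Figure D2:**
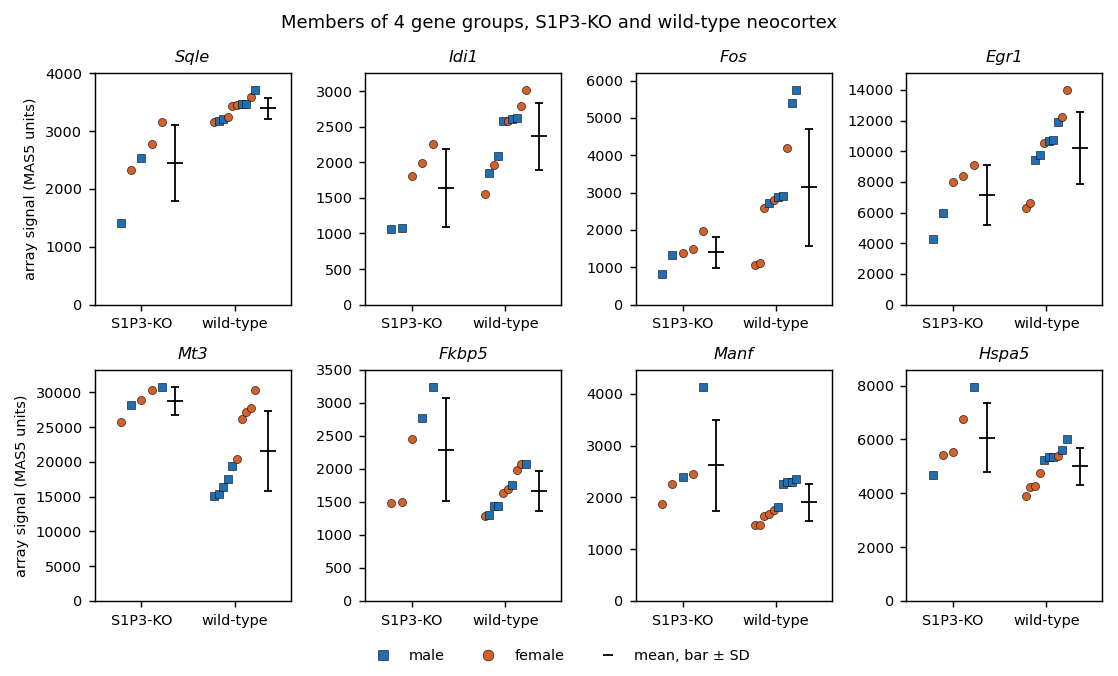
Array signal (MAS5 units, linear axis from 0) in S1P3-KO (5 arrays) and wild-type (10 arrays) neocortex, for 2 genes of each list shown. The lists are cholesterol synthesis (Sqle, Idi1), immediate early factors (Fos, Egr1), glucocorticoid-responsive genes (Mt3, Fkbp5) and endoplasmic reticulum chaperones (Manf, Hspa5). Squares are males and circles females, with mean ± SD beside them. The 2 S1P3-KO males are the lowest arrays for Idi1 and Egr1.

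Medians of the cell type lists were 0.003 for 20 astrocyte genes, -0.10 for 15 microglial and complement genes, 0.04 for 10 oligodendrocyte genes, -0.01 for 21 vascular genes and -0.01 for 17 genes each of GABAergic neurons and of neocortical layers. Among 13 reactive astrocyte genes 5 were higher and 8 lower. Gfap, the intermediate filament of astrocytes, differed by 0.51 ± 0.16 (adjusted p = 0.233), while Serpina3n, another marker of that state, differed by -0.25 ± 0.12. The summed signal of 6 microglial markers was 10443 to 12286 in S1P3-KO and 11276 to 12830 in wild-type, with 1 marker higher and 5 lower. For 7 endothelial markers it was 4409 to 5355 in S1P3-KO and 3788 to 4774 in wild-type, with 5 higher and 2 lower. For 6 markers of neocortex it was 18701 to 23491 in S1P3-KO and 20028 to 25668 in wild-type, and none of the 6 was below the filter level. Markers of tissue that a dissection can carry along overlapped too. The 5 choroid plexus genes summed to 4490 to 5772 in S1P3-KO and 4423 to 8200 in wild-type. Igf2 made up most of that sum, at 3758 to 5175 in S1P3-KO and 3917 to 5230 in wild-type. Ttr read 124 to 1032 in S1P3-KO and 46.8 to 2519 in wild-type, and Kl was below the filter level. The 2 striatal genes summed to 3196 to 5546 in S1P3-KO and 3080 to 8271 in wild-type. Most of this was Penk, at 2922 to 5069 in S1P3-KO and 2750 to 7887 in wild-type.

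Lists of neuronal signalling had medians between -0.08 and 0.07, and none of their members was called. The median was 0.07 for 19 glutamate receptor and scaffold genes, 0.01 for 17 receptors of GABA and monoamines, 0.06 for 26 synaptic vesicle genes and 0.02 for 18 neuropeptide genes. Of 30 voltage-gated and potassium channel genes 13 were higher and 17 lower, with a median of -0.08, and 5 and 3 of them had an unadjusted p under 0.05. Among 38 genes of extracellular matrix and integrins 20 were higher and 18 lower, with 6 and 1 at that p. Over all genes 5.39% were higher and 5.17% lower at that p. The 33 proteasome genes and the 17 circadian clock genes had medians of -0.01 and -0.001, and the 18 genes of antigen presentation and interferon response one of -0.06. Smaller lists gave 0.08 for 5 blood genes, -0.14 for 5 sex-linked genes, -0.16 for 7 genes of striatum and thalamus and -0.04 for 9 of choroid plexus.

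**Figure D3:**
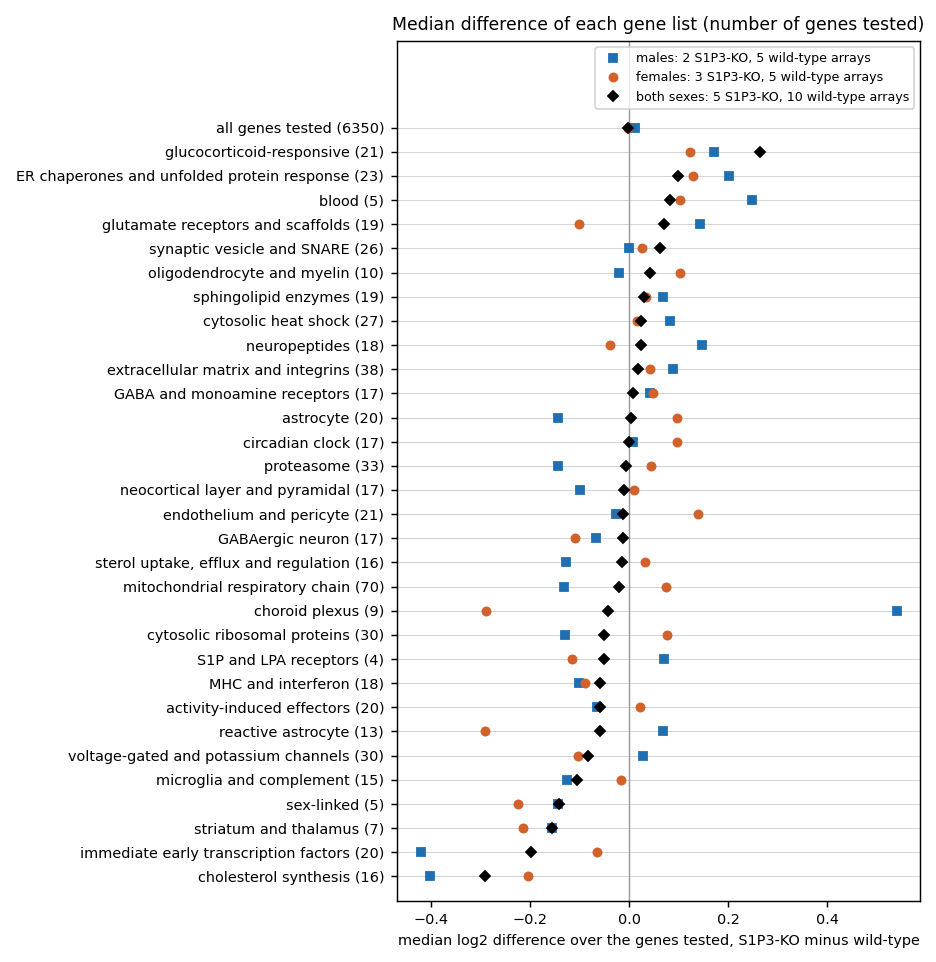
Median log2 difference, S1P3-KO minus wild-type, over the tested genes of each list reported here and over all 6350 genes. Diamonds are both sexes together, squares males (2 S1P3-KO and 5 wild-type arrays) and circles females (3 S1P3-KO and 5 wild-type arrays). Cholesterol synthesis has the lowest median over both sexes, at -0.29, and glucocorticoid-responsive genes the highest, at 0.26.

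For part of the transcripts the S1P3-KO difference depended on sex. A test of the difference between the sexes called 104 of 8534 probe sets (1.22%), 81 of them lower in males than in females relative to the wild-type arrays of the same sex. They include 80 of the 6350 genes (1.26%). Within each sex, limma called 211 probe sets in males (2.47%) and 4 in females (0.0469%). The male group holds only 2 S1P3-KO arrays, which also had the 2 lowest RNA ratios, so sex and whatever else these 2 arrays share cannot be told apart. Replicate 2 also had the lowest median Pearson correlation (0.936) and the highest median signal (413.8) of the 15 arrays. Its limma array weight was 0.4, the lowest of the 25 neocortex arrays. With the ratio as a covariate the test between the sexes called 111 probe sets. When 1 array was left out, the test between the sexes called 206 probe sets in the absence of S1P3-KO replicate 1, 22 in that of replicate 3, 27 in that of replicate 4 and 184 in that of replicate 5. It called 57, 68 and 68 in the absence of wild-type replicates 1, 2 and 9. The 211 male calls became 114 without S1P3-KO replicate 1 and 133 without replicate 2, and 66 of the 211 were among the calls in each case.

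The gene with the smallest p in the test between sexes was Nup54, a nucleoporin of the central channel of the nuclear pore. It read 167 and 111 in S1P3-KO males against 524 to 811 in wild-type males, and 990, 717 and 747 in S1P3-KO females against 386 to 592 in wild-type females. No array of S1P3-KO overlapped wild-type within either sex, and the 2 sexes lay on opposite sides. The difference was -1.92 ± 0.28 in males and 0.75 ± 0.25 in females, and these differed by -2.66 ± 0.38 (adjusted p = 0.00128). Rps7, a protein of the small ribosomal subunit, read 12127 and 12614 in S1P3-KO males against 16096 to 18843 in wild-type males, and 18667, 18594 and 15371 in S1P3-KO females against 13770 to 15485 in wild-type females. The sexes differed by -0.73 ± 0.12 (adjusted p = 0.00638).

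Ddx50, a nucleolar RNA helicase, Hsbp1, which binds heat shock factor, and Pla2g12a, a secreted phospholipase, were also lower in males relative to females, with male minus female differences of -1.26 ± 0.21, -1.19 ± 0.20 and -1.25 ± 0.23. The dimmer probe set of Ddx50 did not follow, with S1P3-KO minus wild-type differences of 0.14 in males and 0.07 in females. Pdha1, the catalytic subunit of pyruvate dehydrogenase and an X-linked gene, read 5033 and 5464 in S1P3-KO males against 6537 to 7516 in wild-type males, and 8239, 6693 and 6874 in S1P3-KO females against 5012 to 6088 in wild-type females (-0.86 ± 0.16, adjusted p = 0.00816). Wild-type males lay above wild-type females in this gene and in Rps7, without overlap.

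**Figure D4:**
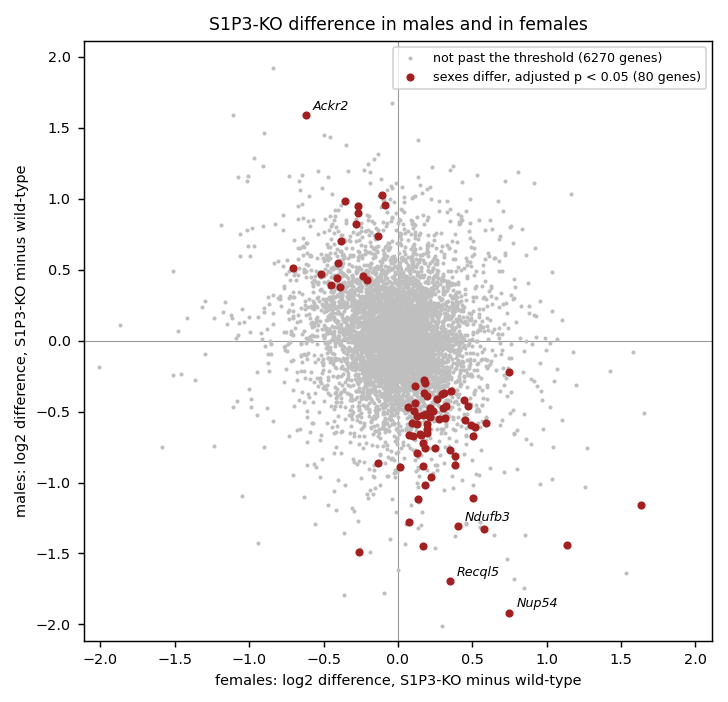
Log2 difference, S1P3-KO minus wild-type, in males (vertical axis) against females (horizontal axis) for 6350 genes. The 80 genes whose difference passed the test between sexes are red, and 63 of them have a lower difference in males than in females.

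Abundant transcripts of respiration and translation were among the male calls. Of 70 genes of the mitochondrial respiratory chain, 45 were lower in males (median -0.13) and 48 were higher in females (median 0.07), and 8 fell in males by the adjusted test. Those 8 were the complex I subunits Ndufb3 (-1.31 ± 0.28), Ndufa2 and Ndufs3, Sdhd of complex II (-0.67 ± 0.13), Cyc1 and Uqcr10 of complex III, Cox6a1 of complex IV and Atp5o of the ATP synthase (-0.81 ± 0.19). The share called lower over all genes in males was 1.75%. Ndufb3 read 1140 and 2440 in S1P3-KO males against 3213 to 5830 in wild-type males, and 5170, 4734 and 3854 in S1P3-KO females against 2893 to 4638 in wild-type females. Of 30 cytosolic ribosomal protein genes 4 fell in males, Rps7, Rps3a1, Rpl10a and Rplp0, and their median was -0.13 in males and 0.07 in females. That male median was -0.26 without S1P3-KO replicate 1 and -0.03 without replicate 2. Over all genes the medians were 0.01 in males and -0.003 in females. These calls depended on which male array was kept: without S1P3-KO replicate 1 the respiratory list held 4 lower calls and the ribosomal list 4, and without replicate 2 they held 4 and 1. Neither Ndufb3, Sdhd nor Rps7 was called without replicate 1 (for Rps7, adjusted p = 0.0503), and neither Atp5o nor Uqcr10 without replicate 2.

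**Figure D5:**
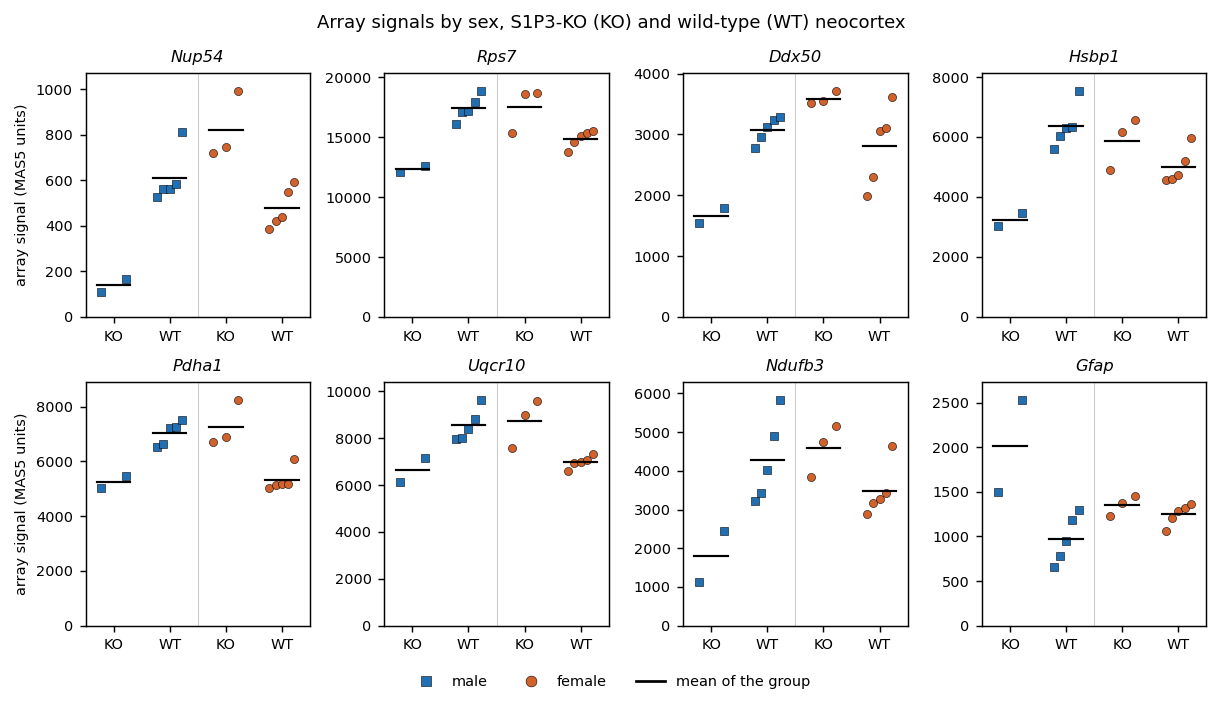
Array signal (MAS5 units, linear axis from 0) of 8 genes in S1P3-KO (KO) and wild-type (WT) neocortex, males on the left of each panel and females on the right. Points are arrays and bars the group mean. In Nup54, Rps7 and Pdha1 the S1P3-KO males lie below the wild-type males, while in Gfap they lie above them.

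The lists with the lowest and highest medians over both sexes were then read within each sex. In males 4 cholesterol synthesis genes fell, Idi1 (-1.11 ± 0.19, adjusted p = 0.00392), Sqle (-0.84 ± 0.19, adjusted p = 0.0168), Mvd (-0.97 ± 0.23, adjusted p = 0.019) and Fdft1, squalene synthase (-0.77 ± 0.18, adjusted p = 0.0193). In females the same 4 genes differed by -0.20 ± 0.17, -0.30 ± 0.17, -0.25 ± 0.20 and 0.11 ± 0.16. The list median was -0.40 in males (13 of 16 lower) and -0.20 in females (12 of 16 lower), and no member passed the test between sexes. In the absence of S1P3-KO replicate 1 the male test called Idi1 of this list, and in that of replicate 2 it called Idi1, Fdft1 and Sqle. Sqle differed by -0.42 without replicate 1 and -1.25 without replicate 2, and Fdft1 by -0.25 and -1.29. Idi1 differed by -1.12 and -1.10, and Mvd by -1.08 and -0.86, on the same terms.

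Fos (-1.79 ± 0.47), Nr4a2 (-1.08 ± 0.23) and Egr1 (-1.04 ± 0.23) also fell in males, with adjusted p-values of 0.0373, 0.0104 and 0.0159. With the RNA ratio as a covariate Fos was no longer called in males (adjusted p = 0.105), while Nr4a2 and Egr1 were. In females they differed by -0.36 ± 0.42, -0.21 ± 0.20 and -0.15 ± 0.20, and none of the 3 passed the test between sexes. The median of the 20 immediate early genes was -0.42 in males and -0.06 in females. Without replicate 1 only Nr4a2 of this list was called in males, and without replicate 2 only Egr1. The Fos difference was -2.12 without replicate 1 and -1.46 without replicate 2. The dimmer probe set of Nr4a2 differed by -0.45 in males (adjusted p = 0.333).

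Among genes that rose in males (0.913% of all genes tested), 3 were on the glucocorticoid-responsive list, Mt3 (0.82 ± 0.15), Fkbp5 (0.91 ± 0.23) and Cdkn1a (0.88 ± 0.23). Of the chaperone genes 1 rose, Pdia4 (1.10 ± 0.28). Mt3 read 28101 and 30794 in S1P3-KO males against 15145 to 19462 in wild-type males, whereas S1P3-KO females, at 25788 to 30358, lay within the wild-type female range of 20347 to 30400. Gfap read 2529 and 1502 in S1P3-KO males against 658 to 1295 in wild-type males (1.02 ± 0.21, adjusted p = 0.00962), and differed by 0.11 ± 0.18 in females. Its test between sexes gave 0.91 ± 0.28 (adjusted p = 0.0897), and its dimmer probe set differed by 0.64 in males (adjusted p = 0.191). Sdc4 (0.86 ± 0.18), Grb2 (0.82 ± 0.16), Gnb1 (0.70 ± 0.16), Ramp2 (0.70 ± 0.17) and Fmnl1 (1.16 ± 0.26), which led over both sexes, rose in males as well. Sncb, the gene for beta-synuclein, rose by 0.91 ± 0.21 and F3, tissue factor, the receptor that starts coagulation and an astrocyte product, by 1.03 ± 0.20. The 20 genes of the astrocyte list had a median of -0.145 in males, with 7 higher and 13 lower, and 2 were called higher and 1 lower. With the RNA ratio as a covariate Sncb was not called (adjusted p = 0.054). Of the genes in this paragraph, only Mt3 was still called in males without S1P3-KO replicate 1 (adjusted p = 0.0252). With that 1 male left the differences were 0.82 for Sdc4, 0.67 for Grb2, 1.18 for Fmnl1, 0.93 for F3, 0.84 for Cdkn1a, 0.80 for Fkbp5 and 1.02 for Pdia4, and 0.65 for Gfap. Without replicate 2 the calls that held were Gfap, Grb2, Gnb1, Ramp2 and F3, and Mt3 had an adjusted p of 0.054.

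Largest by size among the genes that fell in males were Ocln, the tight junction protein occludin (-2.01 ± 0.52), Nup54, Fos, Dicer1, the nuclease that matures microRNAs (-1.78 ± 0.44), and Creg1 (-1.70 ± 0.43). Ocln read 12.2 and 56.1 in S1P3-KO males against 148 to 384 in wild-type males, and such low signals are less certain than those above. Gstt1, a glutathione transferase, fell by 1.49 on the log2 scale and Recql5, a DNA helicase, by 1.69. The male difference of Creg1 was -3.08 without S1P3-KO replicate 1 and -0.33 without replicate 2. Nup54 and Gstt1 stayed called without either male, Dicer1, Creg1 and Recql5 were lost without replicate 2, and Ocln without either. With the RNA ratio as a covariate Ocln, Dicer1 and Creg1 were not called either, with adjusted p-values of 0.0948, 0.0717 and 0.0646. Csf1r, the growth factor receptor of microglia, fell by 0.58, and Rac1, a small GTPase downstream of S1P receptors, by 0.53, while in females they differed by 0.09 ± 0.11 and 0.17 ± 0.09. In males the summed signal of the 6 microglial markers was 10443 and 10532 in S1P3-KO and 12184 to 12830 in wild-type. For the 8 astrocyte markers it was 32604 and 37668 in S1P3-KO males and 37389 to 39146 in wild-type males. Csf1r and Rac1 were not called without replicate 1. Of 9 choroid plexus genes 6 were higher in males (median 0.54) and 2 in females (median -0.29), with none called. The part of these markers in the male results was not tested.

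In females 4 probe sets were called, all higher. They included Sod1, the cytosolic superoxide dismutase, which read 8558, 9970 and 9177 in S1P3-KO females against 4947 to 6381 in wild-type females (0.74 ± 0.14, adjusted p = 0.0487). Fxyd7, a brain regulator of the sodium pump (0.55 ± 0.10), and the deubiquitinase Usp21 (0.75 ± 0.14) had the same adjusted p. The other probe set called is a dimmer one of Cadm1, a synaptic adhesion molecule. The brightest probe set of Cadm1 was not called and differed by 0.19 in females. The count was 0 with the RNA ratio as a covariate, under quantile normalization and without the S1P2-KO arrays, and it lay between 0 and 5 when 1 array was left out.

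Hippocampus from the same genotypes gave no probe set whose S1P3-KO difference departed from that in neocortex: limma called 0 of 8534 (0.0%), with 438 below 0.05 before adjustment. Sdc4, Grb2 and Gnb1 differed in hippocampus by 0.59 ± 0.16, 0.50 ± 0.15 and 0.86 ± 0.18, and Gfap by 0.84 ± 0.16. S1P3-KO hippocampus replicate 5 stood apart, with an RNA ratio of 4.46 against 0.403 to 0.515 in the other S1P3-KO hippocampus arrays. Its median Pearson correlation with the other hippocampus arrays was 0.85. Without it the same 4 genes differed by 0.85 ± 0.13, 0.53 ± 0.16, 0.63 ± 0.17 and 0.69 ± 0.16. Fos and Egr1 differed in hippocampus by -0.93 ± 0.36 and -0.61 ± 0.20, and without that array by -1.11 ± 0.38 and -0.72 ± 0.21. Mef2c differed by -1.43, and by -1.30 without it. Cholesterol synthesis genes had a median of -0.16 there and glucocorticoid-responsive genes one of 0.28, and these were -0.23 and 0.24 without it. In hippocampus the test between sexes called 4 probe sets, and 0 without the array of highest RNA ratio (759 at an unadjusted p under 0.05).

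Set against the S1P2-KO neocortex directly, the S1P3-KO arrays differed in 0 of 8534 probe sets (0.0%) by limma, with 506 below 0.05 before adjustment, and in 1, for Rps19, with the RNA ratio as a covariate. Both knockout groups are compared with the same 10 wild-type arrays, so their differences are given side by side without a measure of likeness. For Sdc4 they were 0.62 ± 0.13 in S1P3-KO and 0.45 ± 0.10 in S1P2-KO, for Grb2 0.61 ± 0.12 and 0.36 ± 0.10, for Fos -1.0 ± 0.34 and -1.32 ± 0.27, and for Gfap 0.51 ± 0.16 and 0.47 ± 0.13. Sqle differed by -0.54 ± 0.13 in S1P3-KO and -0.10 ± 0.11 in S1P2-KO, and S1P3-KO minus S1P2-KO was -0.44 ± 0.13 (adjusted p = 0.696). For Uap1 the same values were -1.17 in S1P3-KO and 0.01 in S1P2-KO.

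Genes next to the targeted locus were read for themselves. Among the 10 measured genes on each side of S1pr3 in the RefSeq order, none was called. The nearest measured genes were Shc3 on one side (0.24 ± 0.16) and Spin1 on the other (0.01 ± 0.09). The unadjusted p was under 0.05 for 2 of them, Dek (-0.38 ± 0.14) and Gadd45g (-0.35 ± 0.14), a share near the 10.5% of all probe sets. Sptlc1, a subunit of the enzyme that begins sphingolipid synthesis, lies in this stretch and differed by 0.01 ± 0.09.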

How the data were processed

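RNA from neocortex or hippocampus was hybridised to Affymetrix arrays, and each array is taken as 1 mouse. The labels' protocols give 12 micrograms of total RNA, extracted with TRIzol. The deposited values are intensity values on a linear scale, made by the authors with MAS5 per the submitters' processing notes, with no version and no detection calls. Values on 12488 probe sets and 50 arrays were used, and the values themselves show that each array had been scaled to nearly the same trimmed mean. Of the probe sets, 10855 were paired with 1 gene symbol by the platform annotation, 396 with several and 1237 with none. Such array scaling hides a shift shared by all transcripts, and MAS5 signals of dim probe sets are noisy.

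The log2 scale had an offset of 30.7 added to each signal, equal to the 10th percentile over the table. The 66 control probe sets were removed, and 8534 probe sets whose mean log2 value lay above the level of the 30th percentile (132.6) were kept. Linear models were fitted in R 4.3.3 with limma 3.58.1, using its moderated variances with a mean trend, and summaries were made in Python 3.11.15. The fit held S1P3-KO (5 arrays), S1P2-KO (10) and wild-type (10) neocortex, plus a term for sex. The Benjamini-Hochberg adjustment ran over all probe sets tested. The genotype by sex term and the contrasts within each sex came from a fit of genotype and sex together. The differences within each sex were added after the data were seen. The tissue contrast used all 50 arrays, without pairing in the main fit. Whether neocortex and hippocampus arrays came from the same mice was not given in the sources used here. The fit was tested on simulated data with known shifts.

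Genes were named by a rule: the S1P receptors, the genes with the smallest p or called in each direction, those with no overlap between groups, list members by smallest p, genes called under an alternative, genes of the test between sexes, and the neighbours of S1pr3. Further genes of the male and female calls were picked with their values known. 1 of the 32 lists is not reported here, and not every gene that the rule allows is printed. The part of the series examined, the lists and the markers were chosen with earlier results of these data known. Alternatives were the pseudocount, the filter, the scaling, the covariates, array weights, the mean trend, the arrays in the fit, a block on replicate number and leaving out each array. Same-numbered S1P3-KO and wild-type arrays had correlations of -0.178 to 0.046 in their deviations from the group means, so the numbers were not taken as pairs. Between same-numbered neocortex and hippocampus arrays these correlations were -0.068 to 0.168 in S1P3-KO and -0.003 to 0.19 in wild-type. The number of arrays limits the precision.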

Additional observations from a re-analysis of the deposited data

Results flagged for a closer look

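In 3 of 56 groups of 4 or more arrays examined, over 27 named genes, 1 array stood far from the others of its group, and chance gives about 1 in 20 groups. Grb2 read 4355 in S1P3-KO replicate 1, against 3527 to 3758 in the other S1P3-KO arrays. Zfp148 read 806 in S1P3-KO replicate 3, against 470 to 531 in the others. Hmces read 370 in wild-type replicate 3, against 654 to 863 in the other wild-type arrays.

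The S1P3-KO difference itself differed between males and females in 104 probe sets by limma's genotype by sex term. The 10 genes with the smallest p all had a lower difference in males, given here as male minus female on the log2 scale. They were Nup54 (-2.66), Rps7 (-0.73), Ddx50 (-1.26), Hsbp1 (-1.19), Ogfr, the opioid growth factor receptor (-1.01), Pla2g12a (-1.25), Pdha1 (-0.86), Uqcr10 (-0.68), Cdc123, an assembly factor for translation initiation (-0.86), and Recql5 (-2.04). Ogfr read 765 and 780 in S1P3-KO males and 992 to 1343 in S1P3-KO females. Cdc123 read 1876 and 2002 in S1P3-KO males and 2664 to 2924 in S1P3-KO females. Recql5 read 190 and 81.8 in S1P3-KO males and 395 to 595 in S1P3-KO females. The cause was not tested.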

How the results depend on the processing

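The count of 0 probe sets over both sexes became 23 with the RNA ratio as a covariate and 205 in male arrays alone, and it lay between 0 and 10 when 1 array was left out (10 without S1P3-KO replicate 3). With the replicate number as a block, S1P3-KO against wild-type replicates 1 to 5 gave 13 calls. That block sets 3 S1P3-KO females against males, and the numbers do not pair the samples. Under it S1pr3 differed by -0.006 and S1pr2 by 0.464. The test between sexes (104) gave 64 with no filter, 165 with the stricter filter, and 22 to 206 when 1 array was left out. When 1 array was left out the male count (211) ran from 114 to 236 and the female count (4) from 0 to 5. The male count was 190 with no filter, 278 with the stricter filter and 241 under quantile normalization. The female count was 0 with no filter, with the ratio as a covariate, under quantile normalization and with S1P3-KO and wild-type alone. Against S1P2-KO the ratio as a covariate gave 1 call. The tissue contrast gave 0 in every setting, the block included. The RNA ratio difference was -0.1 for Gapdh alone (exact permutation p = 0.0716). S1pr3 stayed negative and not called in every setting. S1pr1 turned positive with the ratio as a covariate (0.051, or 0.127 with S1P3-KO and wild-type alone) and in females alone (0.056), and ranged from -0.119 to 0.054 when 1 array was left out. S1pr2 turned positive with S1P3-KO and wild-type alone plus the ratio (0.066) and in males alone (0.233), and ranged from -0.186 to 0.021 when 1 array was left out. Of the values for named genes over both sexes, 1001 kept their side of the threshold, 37 passed it and 9, those of S1pr1 and S1pr2, changed sign. Of the male values 608 kept their call and 76 lost it, and of the test between sexes 228 kept it and 2 lost it, Recql5 and Uqcr10 without S1P3-KO replicate 2. List medians moved by more than the wild-type spread in 4 values and by less in 540. The cause of these changes was not tested. With 2 S1P3-KO males, and 1 when either is left out, the male spread is largely that of the other groups.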

Other observations

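With the RNA ratio as a covariate, limma called genes that did not lead without it. Spock1, which encodes the proteoglycan testican-1, differed by 0.76 ± 0.14 and Ehd1, which recycles endocytosed receptors, by 0.85 ± 0.17. Mgp, a matrix protein that keeps vessels from calcifying, differed by 0.61 ± 0.13, and Bcl2l1, which protects cells from apoptosis, by 0.31 ± 0.07. On the lower side were Pdxk, the kinase that activates vitamin B6 (-1.08 ± 0.23), Htt, huntingtin (-0.59 ± 0.13), and Zfp106 (-0.50 ± 0.11). Their adjusted p-values were 0.0459 to 0.0467. All 23 probe sets had an unadjusted p under 0.05 without the covariate.

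Wild-type males and females differed in 7 probe sets, and S1P3-KO males and females in 39. Of the 169 genes called in males, 73 had the same sign in females. The median size of their difference was 0.697 in males, where they were chosen, and 0.129 in females. In hippocampus the male and the female contrasts each called 0 probe sets by limma, with 814 and 1333 at an unadjusted p under 0.05.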
